A study of Mus musculus with 6 samples.

Results

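The alpha and beta tubulin genes encode the subunits of microtubules. The 10 genes described here, 6 beta (Tubb2a, Tubb2b, Tubb3, Tubb4b, Tubb5 and Tubb6) and 4 alpha (Tuba1a, Tuba1b, Tuba1c and Tuba4a), were taken by symbol from the 17741 rows of an expression table of mouse fetuses. All 10 were found, and all 10 passed a filter of a mean of at least 1 FPKM (fragments per kilobase of transcript, scaled to the mapped fragments of the library) over the libraries. The genes were chosen with the difference between the study's groups already known, so their values in that comparison are given as a description. Tests run over all genes included these 10, and nothing is read from their results.

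RNA-seq was carried out on C57BL/6 fetuses collected at 9.0 dpc (days post coitum). The comparison bears on neural tube defects under excess KLF12, a transcription factor with zinc fingers. There were 3 libraries of genotype WT and 3 of genotype KLF12 overexpression (KLF12_OE). The promoter or allele that drives KLF12, and whether a library is 1 fetus or a pool, are not given in the sources used here, so the spread between libraries may be partly technical.

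Microtubules are hollow polymers of alpha-beta tubulin dimers. They form the mitotic spindle, the axoneme of cilia and the tracks for transport in axons, and in the closing neural tube they line up along the apicobasal axis of the neuroepithelium. Vertebrates carry several genes for each subunit, the isotypes, whose products share a conserved core and differ most in the acidic tail at the carboxyl end, where modifying enzymes and motor proteins act. Tubb5 and Tuba1b are broadly expressed, Tubb2b and Tuba1a are abundant in the developing brain, and Tubb3 is a standard marker of young neurons. Mutations in the human TUBA1A, TUBB2B, TUBB3 and TUBB genes cause malformations of brain development.

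The close similarity of these genes limits how well short reads separate them, and it is shown here by the end of the coding sequence, which encodes the tail. The last 66 coding bases of 4 beta isotypes, stop codon included, are given 5′ to 3′ on the coding strand, from GENCODE M21 transcripts on GRCm38. Capitals mark bases that differ from Tubb2b in an alignment of the whole coding sequences, and in Tubb2b itself those that differ from Tubb2a.
Tubb2b: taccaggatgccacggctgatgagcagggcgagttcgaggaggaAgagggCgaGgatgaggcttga
Tubb2a: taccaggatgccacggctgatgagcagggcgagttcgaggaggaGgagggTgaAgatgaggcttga
Tubb3: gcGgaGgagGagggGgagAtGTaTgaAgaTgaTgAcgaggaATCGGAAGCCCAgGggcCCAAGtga
Tubb5: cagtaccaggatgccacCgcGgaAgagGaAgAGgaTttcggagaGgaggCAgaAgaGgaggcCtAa
They lie at chr13:34127471-34127536 on the minus strand, chr13:34074468-34074533 on the minus strand, chr8:123421617-123421682 on the plus strand and chr17:35834982-35835047 on the minus strand, in the order printed. Tubb2b and Tubb2a, which are neighbours on chromosome 13, differ at 3 of these 66 bases, whereas 30 of the 66 bases of Tubb3 and 15 of those of Tubb5 have no match in Tubb2b.

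Over whole coding sequences Tubb2a and Tubb2b were 96.5% identical, with a longest identical run of 551 bases. The other beta pairs ranged from 80.2% to 86.0%. Tuba1a, Tuba1b and Tuba1c were 97.1% to 98.3% identical to one another and 84.7% to 85.3% identical to Tuba4a. Of all windows of 100 bases in the transcripts, 26.1% of those of Tubb2b and 35.9% of those of Tubb2a occurred in the other gene. For Tuba1a, Tuba1b and Tuba1c the shared windows were 38.4%, 52.3% and 53.4%. Tubb3, Tubb4b, Tubb5, Tubb6 and Tuba4a shared no such window with another of the 10 genes. The values of Tubb2a, Tubb2b and the 3 Tuba1 genes therefore depend on how the authors' counting divided shared reads, and are uncertain to that extent. The read length is not given in the sources used here.

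Before the isotypes are compared, 3 facts of the libraries bear on them. Klf12 was at 1.99, 2.11 and 1.32 FPKM in WT libraries 1 to 3 and at 16.4, 15.2 and 23.9 in KLF12_OE libraries 1 to 3, so each library matched its label. The KLF12_OE libraries were less alike than the WT libraries. Correlations of log2(FPKM + 1) ran from 0.951 to 0.972 within the KLF12_OE group and from 0.975 to 0.978 within WT. Between the groups they ran from 0.955 to 0.969, inside the range of the KLF12_OE group. In KLF12_OE library 3 Ddx3y, a Y-linked gene, had 6.62 FPKM, while KLF12_OE libraries 1 and 2 had 0 and the WT range was 1.80 to 4.45. Depth was estimated from the step in the low values, at about 15700000 to 16700000 fragments per library. Of 14 markers of heart, somite, gut, blood, endothelium, neural crest and forebrain fixed to check the tissue, none was at 0 in any library, and their differences between the groups are given with the cell type markers.

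In WT fetuses the 10 isotypes spanned more than 2 orders of magnitude, and the 2 most abundant, Tuba1b and Tuba1a, were alpha tubulins. Tuba1b was at 1518, 1470 and 1428 FPKM in the 3 WT libraries and Tuba1a at 1289, 1267 and 1327. Next came Tubb5 at 868 ± 72.3 FPKM and Tubb4b at 338 ± 33.4 FPKM (SD, n = 3), a beta isotype known from cilia. Tubb2b at 122 ± 1.78 and Tuba1c at 107 ± 14.0 FPKM were not separated, since the highest Tuba1c value, 123, exceeded the lowest of Tubb2b, 120. Every other neighbour in the order was separated in WT: Tubb6 followed at 80.1 ± 1.23 FPKM, Tubb2a at 35.6 ± 2.19, Tubb3 at 16.6 ± 1.04 and Tuba4a at 3.60 ± 0.269. In the KLF12_OE group Tubb2b ranked 8 instead of 5, where it was not separated from Tubb2a above it, and Tubb3 ranked 10, below Tuba4a.

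**Figure D1:**
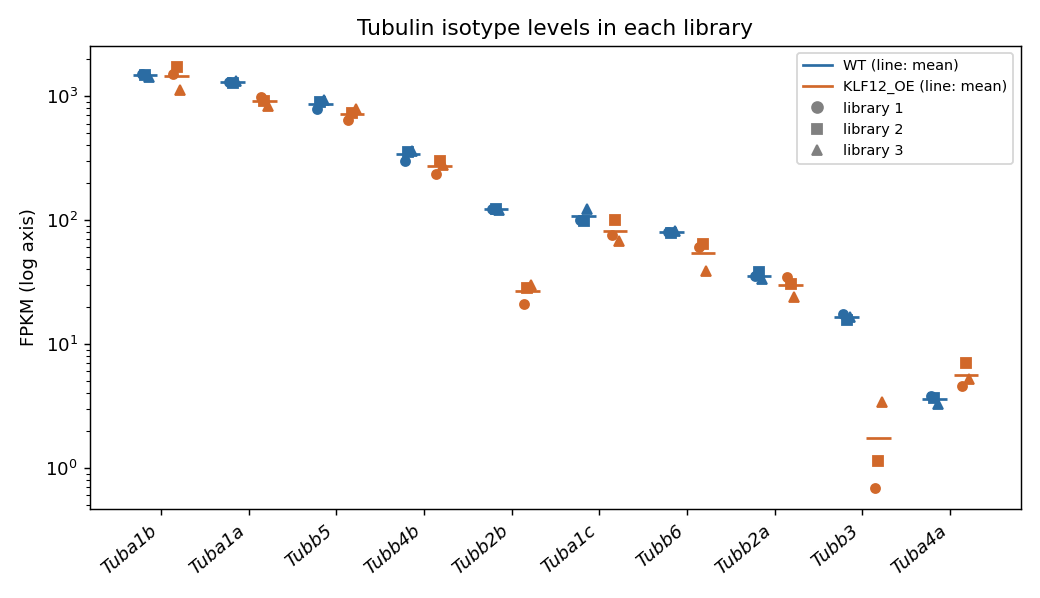
FPKM of the 10 tubulin isotypes in each library (log axis), ordered by their mean in WT, with WT in blue, KLF12_OE in orange, 1 marker shape per library number and a line at each group mean. Tubb2b sits at 120 to 124 FPKM in WT and 21.2 to 30.0 in KLF12_OE, and Tubb3 at 15.5 to 17.6 and 0.69 to 3.40, while the other 8 isotypes differ by less than 1.6 times between the group means.

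The 2 isotypes with the lowest values relative to WT were Tubb3 and Tubb2b. Tubb3, the neuronal beta isotype, was at 17.6, 15.5 and 16.5 FPKM in WT libraries 1 to 3 and at 0.69, 1.14 and 3.40 FPKM in KLF12_OE libraries 1 to 3. All KLF12_OE libraries lay far below all WT libraries, and library 3 was the highest of its group. The group mean was 1.74 ± 1.45 FPKM (SD, n = 3), 9.50-fold below WT, and 18.1-fold below WT without library 3. On the log2(FPKM + 1) scale, which understates changes of low values, the difference KLF12_OE minus WT was -2.80 ± 0.32 (SE). From the approximate depth and a transcript of 1868 bases, these levels correspond to about 460 to 550 fragments per WT library and about 21, 36 and 100 in KLF12_OE libraries 1 to 3. The low levels therefore rest on few fragments, but the gene was detected in every library.

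Tubb2b, a beta isotype abundant in the developing brain, was at 124, 123 and 120 FPKM in the WT libraries. In the KLF12_OE libraries it was at 21.2, 28.3 and 30.0 FPKM. WT libraries differed among themselves by a coefficient of variation of 1.46%, and the KLF12_OE libraries by 17.7%. The group means were 4.61-fold apart, and 4.94-fold without KLF12_OE library 3, with a log2 difference of -2.18 ± 0.15 (SE). Among the 12141 genes tested, Tubb3 ranked 4 and Tubb2b 13 from the lowest log2 difference. In whole-fetus RNA, fewer cells of a type and less RNA per cell cannot be told apart, and this holds for both genes.

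Tubb2a, the near-identical neighbour of Tubb2b, did not show such a gap. It was at 35.5, 37.9 and 33.5 FPKM in WT and at 35.0, 30.4 and 23.7 FPKM in KLF12_OE libraries 1 to 3, and the groups overlapped. The ratio of Tubb2b to Tubb2a within a library, which no scaling of the library can move, was 3.48, 3.24 and 3.59 in WT and 0.606, 0.932 and 1.27 in KLF12_OE. Tubb2b was thus the more abundant of the pair in all 3 WT libraries and in KLF12_OE library 3, and the less abundant in KLF12_OE libraries 1 and 2. Because the 2 genes share many windows, the ratio and this order rest in part on the authors' division of reads.

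The remaining beta isotypes lay modestly below WT. Tubb5 was at 786, 893 and 924 FPKM in WT and at 643, 723 and 790 in KLF12_OE, with 1 KLF12_OE value, 790, inside the WT range. Tubb4b was at 300, 356 and 359 FPKM in WT and at 235, 299 and 279 in KLF12_OE. Its groups were separated only narrowly, by 299.1 against 299.9 FPKM. Tubb6, a beta isotype of many non-neuronal cells, was at 80.1, 78.9 and 81.3 FPKM in WT and at 60.2, 64.3 and 39.1 in KLF12_OE. Its lowest value came from KLF12_OE library 3, without which the log2 difference moved from -0.58 to -0.36. The log2 differences of Tubb5 and Tubb4b were -0.27 ± 0.14 and -0.32 ± 0.14 (SE).

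Among the alpha isotypes, Tuba1a and Tuba1b did not go together. Tuba1a, the isotype linked to neuronal migration, was at 979, 917 and 836 FPKM in KLF12_OE libraries 1 to 3, each below the lowest WT value of 1267. The mean was 70.4% of WT and the log2 difference -0.51 ± 0.13 (SE). Tuba1b was at 1493, 1714 and 1122 FPKM in KLF12_OE, on both sides of the WT values, and its log2 difference of -0.05 ± 0.17 (SE) turned to 0.12 without KLF12_OE library 3. The ratio of Tuba1a to Tuba1b was 0.849, 0.862 and 0.929 in WT and 0.656, 0.535 and 0.745 in KLF12_OE, so the groups did not overlap. Because the 2 genes share many windows, the size of this ratio rests on the authors' division of reads.

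Tuba1c was at 101, 97.4 and 123 FPKM in WT and at 76.1, 101 and 68.0 in KLF12_OE, with overlapping groups. Tuba4a, a low-level alpha isotype in these fetuses, was the only one of the 10 with higher values in KLF12_OE. It was at 3.84, 3.65 and 3.31 FPKM in WT and at 4.58, 7.04 and 5.20 in KLF12_OE, without overlap, with a log2 difference of 0.51 ± 0.20 (SE).

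**Figure D2:**
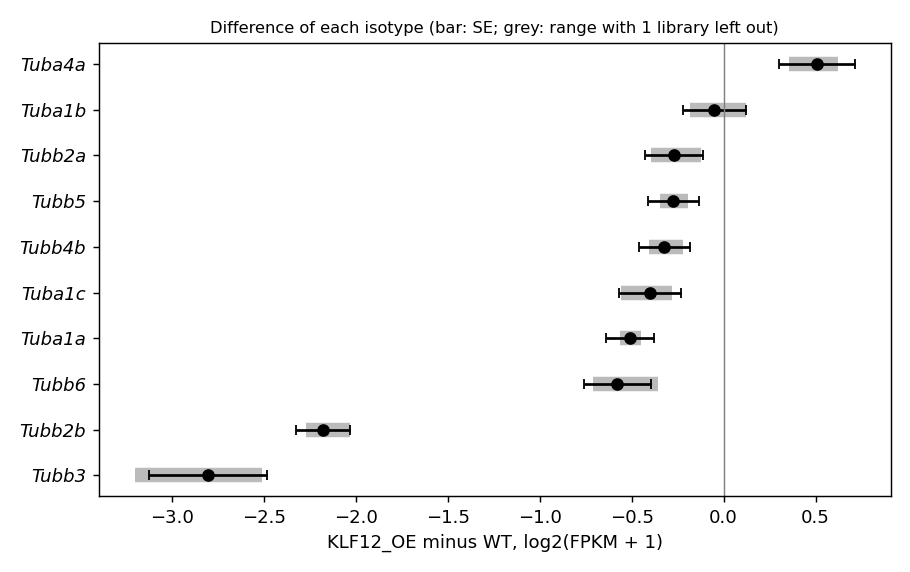
Difference KLF12_OE minus WT of each isotype on the log2(FPKM + 1) scale (points) with its SE (bars), and the range of the difference when each of the 6 libraries was left out in turn (grey). Tubb3 and Tubb2b lie at -2.80 and -2.18, apart from the other isotypes, which lie between -0.58 and 0.51. The grey range of Tuba1b, -0.19 to 0.12, crosses 0.

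Counted together, 9 of the 10 log2 differences were negative, with a median of -0.36 against -0.02 over all genes tested. The groups did not overlap for 5 isotypes that were lower in KLF12_OE and for 1 that was higher. Across all genes tested, 8.98% were lower and 7.9% higher without overlap. By limma with Benjamini-Hochberg adjustment over all genes, 2 of the 10 isotypes, Tubb2b and Tubb3, had an adjusted p under 0.05 with lower values, where 0.634% of all genes were called lower and 0.733% in either direction. Tubb3 did not pass without a filter or without WT library 3 (limma adjusted p = 0.0552 and 0.0503). These counts describe genes chosen on the same contrast, and nothing is read from them.

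The makeup of the beta-tubulin pool differed between the groups. Each isotype was expressed as a share of the summed FPKM of all beta tubulins in the same library, Tubb1 and Tubb4a included. Tubb2b made up 9.17%, 8.12% and 7.79% of the pool in WT and 2.11%, 2.45% and 2.55% in KLF12_OE. The share of Tubb3 was 1.30%, 1.03% and 1.07% in WT and 0.0688%, 0.0988% and 0.288% in KLF12_OE. Summing Tubb2a with Tubb2b gave 10.8% ± 0.933 in WT and 5.08% ± 0.523 in KLF12_OE (SD, n = 3), still without overlap. The sum depends less on the division of reads between them, but not wholly, since FPKM scales each gene by its own length.

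Tubb5 filled a larger share of the smaller pool, 59.0% ± 0.777 in WT and 64.6% ± 2.21 in KLF12_OE (SD, n = 3), although its level was not higher. Tubb4b, at 23.0% ± 0.702 and 24.3% ± 1.38, overlapped, as did Tubb2a and Tubb6. In the alpha pool Tuba1b held 51.2% ± 1.41 in WT and 58.8% ± 3.67 in KLF12_OE, and Tuba1a 45.0% ± 0.948 and 37.7% ± 3.88, without overlap for either. The 3 Tuba1 genes together made up 99.9% ± 0.0133 and 99.8% ± 0.0493 of the alpha pool.

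**Figure D3:**
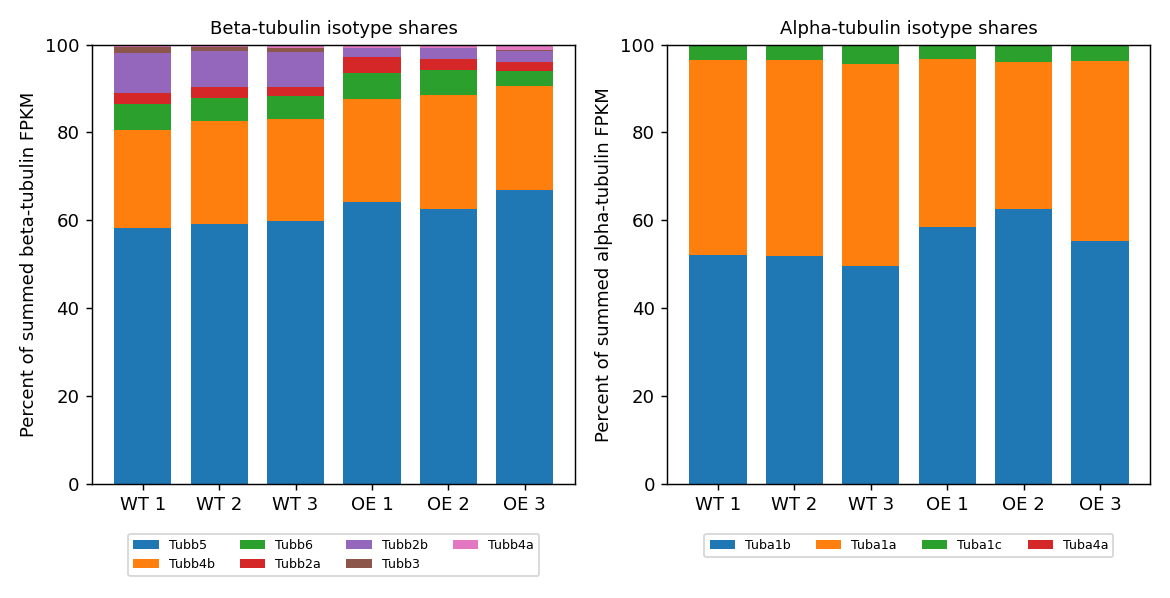
Share of each isotype in the summed beta-tubulin (left) and alpha-tubulin (right) FPKM of each library, in percent; WT 1 to 3 and OE 1 to 3 (KLF12_OE) are the 6 libraries, and each bar stacks the isotypes of the legend. The purple band of Tubb2b narrows from 7.79% to 9.17% in WT to 2.11% to 2.55% in KLF12_OE, and the blue band of Tuba1b is wider in each KLF12_OE library (55.2% to 62.6%) than in each WT library (49.6% to 52.1%).

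The summed beta FPKM was 1350, 1512 and 1545 in WT and 1003, 1154 and 1179 in KLF12_OE. Of the gap of 357 FPKM between the means, Tubb5 made up 41.7%, Tubb2b 26.8%, Tubb4b 18.9%, Tubb6 7.15%, Tubb3 4.15% and Tubb2a 1.66%. Without Tubb2b and Tubb3 the sum was 1330 ± 107 in WT and 1084 ± 89.7 in KLF12_OE (SD, n = 3), also without overlap. Alpha FPKM summed to 2878 ± 36.7 and 2442 ± 367, and the ratio of alpha to beta, 1.97 ± 0.165 and 2.22 ± 0.434, overlapped. Alpha and beta tubulins together were 0.704%, 0.728% and 0.722% of all FPKM in WT and 0.579%, 0.613% and 0.608% in KLF12_OE.

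Promoters were read from RefSeq (GRCm38.p6), as the 300 bases from 250 before to 50 after the annotated start, and 8 of the 10 genes had one. Tubb2b and Tubb6 had none in the table. Those of Tubb3, Tubb5 and Tuba4a are shown, for the isotype lowest relative to WT, the most abundant beta isotype and the isotype with higher values. They lie at chr8:123411303-123411602 on the plus strand, chr17:35838252-35838551 on the minus strand and chr1:75219245-75219544 on the minus strand, and are printed 5′ to 3′ in the direction of the gene. Capitals mark matches on either strand to CAGTGGG, a site described for KLF12, CCACCC, a box bound by KLF factors, GGGCGG, the GC box of SP and KLF factors, and TATAAA. Where CCACCC and GGGCGG matches overlap, as in Tuba4a, they form 1 run of capitals.
Tubb3: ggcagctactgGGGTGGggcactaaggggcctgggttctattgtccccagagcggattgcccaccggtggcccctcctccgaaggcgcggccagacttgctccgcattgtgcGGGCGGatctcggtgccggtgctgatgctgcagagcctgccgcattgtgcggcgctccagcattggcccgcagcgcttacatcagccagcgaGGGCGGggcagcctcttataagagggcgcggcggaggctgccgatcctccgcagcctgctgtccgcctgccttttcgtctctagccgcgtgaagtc
Tubb5: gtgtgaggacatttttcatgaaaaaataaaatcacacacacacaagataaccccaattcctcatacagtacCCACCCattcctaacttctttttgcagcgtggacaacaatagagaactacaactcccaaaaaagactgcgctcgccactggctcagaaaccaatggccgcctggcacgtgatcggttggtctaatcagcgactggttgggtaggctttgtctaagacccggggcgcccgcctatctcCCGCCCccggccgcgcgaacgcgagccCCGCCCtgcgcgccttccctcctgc
Tuba4a: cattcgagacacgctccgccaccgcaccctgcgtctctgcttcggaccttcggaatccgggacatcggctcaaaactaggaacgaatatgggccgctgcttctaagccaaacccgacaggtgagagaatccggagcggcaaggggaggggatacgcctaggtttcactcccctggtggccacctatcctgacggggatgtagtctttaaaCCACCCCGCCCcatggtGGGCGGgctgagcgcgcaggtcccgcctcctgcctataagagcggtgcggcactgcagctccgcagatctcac
The KLF12 site CAGTGGG was in 1 of the 8 promoters, that of Tuba1c, and in 7.05% of all 32851 promoters of the table. CCACCC was in 5 of 8 (31.5% of all), GGGCGG in 7 of 8 (35.7% of all) and TATAAA in 2 of 8, Tubb2a and Tubb4b (13.6% of all). The Tubb3 promoter held 1 CCACCC and 2 GGGCGG matches, Tubb5 held 1 and 2, and Tuba4a held 1 and 2, so these letters were alike in the 3 promoters. The windows are short, and a missing match says only that the letters are not in them.

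The genes next to Tubb3 and Tubb2b were examined after the values of the isotypes were seen, as up to 3 protein-coding genes on each side in the GRCm38.p6 order. Next to Tubb3, Def8 was at 17.8 ± 2.16 FPKM in WT and 17.4 ± 1.31 in KLF12_OE, Tcf25 at 62.3 ± 5.90 and 66.3 ± 9.67, and Afg3l1 at 32.2 ± 3.46 and 30.3 ± 5.93 (SD, n = 3). Their groups overlapped. Mc1r was listed at 0 to 0.05 FPKM and not tested. Spire2, an actin nucleator, was at 3.45 ± 1.13 and 1.27 ± 0.555, and Dbndd1 at 3.85 ± 1.17 and 0.917 ± 0.783 FPKM. Both were lower without overlap, as were 8.98% of all genes tested. Neither was called by limma (adjusted p = 0.228 and 0.129). Next to Tubb2b and Tubb2a, Ripk1, Bphl, Psmg4, Slc22a23 and Pxdc1 had log2 differences between -0.30 and 0.62, with overlapping groups, and were not called.

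The other genes that build, modify and use microtubules were then tested as 8 lists of 160 genes, of which 142 passed the filter. By limma 0 of the 142 were called, where 0.733% of all genes were, and 20 had an unadjusted p under 0.05 (14.1%, against 10.9% of all genes tested). Their median log2 difference was -0.07. The groups did not overlap for 21 genes lower in KLF12_OE (14.8%, against 8.98% of all genes) and for 9 higher (6.34%, against 7.9%). No other tool was run.

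Of the tubulins outside the 10, 9 of 10 had a row and 4 passed the filter, none called. Tubb4a, a beta isotype of mature neurons and oligodendrocytes, was at 7.98 ± 1.63 FPKM in WT and 9.57 ± 3.66 in KLF12_OE, and Tube1, the centriolar epsilon tubulin, at 6.10 ± 0.348 and 7.91 ± 0.532 (SD, n = 3; limma adjusted p = 0.861 and 0.514). Tubb1, Tuba3a, Tuba8, Tubal3 and Tubg2 did not pass the filter. Of 21 genes for tubulin folding, the CCT chaperonin, prefoldin and the tubulin cofactors, 0 were called, 2 had an unadjusted p under 0.05, and the median log2 difference was -0.06. The 2 were the cofactors Tbcd, at 20.6 ± 0.215 and 15.9 ± 0.277 FPKM, and Tbca, at 310 ± 8.90 and 238.5 ± 55.1 (limma adjusted p = 0.337 and 0.420).

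Nucleation genes, the gamma-tubulin ring and augmin subunits, had 0 of 19 called, 0 with an unadjusted p under 0.05 and a median of -0.07. Tubgcp2 was at 25.3 ± 1.49 and 29.4 ± 0.834 FPKM and Cdk5rap2 at 6.92 ± 0.616 and 8.73 ± 1.36 (limma adjusted p = 0.601 and 0.620). Tubulin-modifying enzymes had 0 of 18 called and 4 with an unadjusted p under 0.05, with a median of 0.02. Ttl, which adds the terminal tyrosine back to alpha tubulin, was at 6.53, 7.04 and 5.88 FPKM in WT and 3.48, 3.12 and 3.91 in KLF12_OE (adjusted p = 0.146 by limma). Ttll1, of the complex that polyglutamylates tubulin tails, was at 9.20 ± 0.492 and 6.21 ± 0.849 (adjusted p = 0.300 by limma).

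Microtubule-binding and end proteins had 0 of 28 called, 9 with an unadjusted p under 0.05 and a median of -0.18. Map4, a microtubule stabilizer of many tissues, was at 35.8, 43.1 and 41.8 FPKM in WT and 19.7, 20.4 and 27.1 in KLF12_OE, and its log2 difference was -0.83 ± 0.16 (SE; limma adjusted p = 0.0590). Crmp1, a collapsin response mediator that binds tubulin, was at 22.1 ± 3.03 and 9.65 ± 3.75 FPKM (limma adjusted p = 0.0778). Destabilizing and severing genes had 0 of 14 called, 3 with an unadjusted p under 0.05 and a median of -0.03. Stmn2, a neuronal stathmin that sequesters tubulin dimers, was at 7.22, 2.99 and 6.58 FPKM in WT and 0.71, 0.25 and 1.74 in KLF12_OE, with a log2 difference of -1.80 ± 0.37 (SE; limma adjusted p = 0.0736). Stmn1, its widely expressed relative, was at 516 ± 37.0 and 384 ± 41.4 FPKM (limma adjusted p = 0.250).

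Among motors, 0 of 27 were called, 2 had an unadjusted p under 0.05 and the median was -0.10. Dynlt1b, a dynein light chain, was at 84.0 ± 6.32 and 51.9 ± 10.1 FPKM, and Klc1, a kinesin light chain, at 45.3 ± 1.17 and 33.4 ± 1.98 (limma adjusted p = 0.0931 and 0.184). Tubulin mRNAs are themselves degraded when free dimers build up, through TTC5, SCAPER and the CCR4-NOT deadenylase. Of 11 genes of that route 0 were called, 0 had an unadjusted p under 0.05 and the median was 0.07. Cnot11, the subunit that binds SCAPER, was at 29.3 ± 1.84 and 23.5 ± 3.15 FPKM and Cnot1, the scaffold, at 60.9 ± 1.11 and 69.2 ± 0.496 (limma adjusted p = 0.468 and 0.606).

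**Figure D4:**
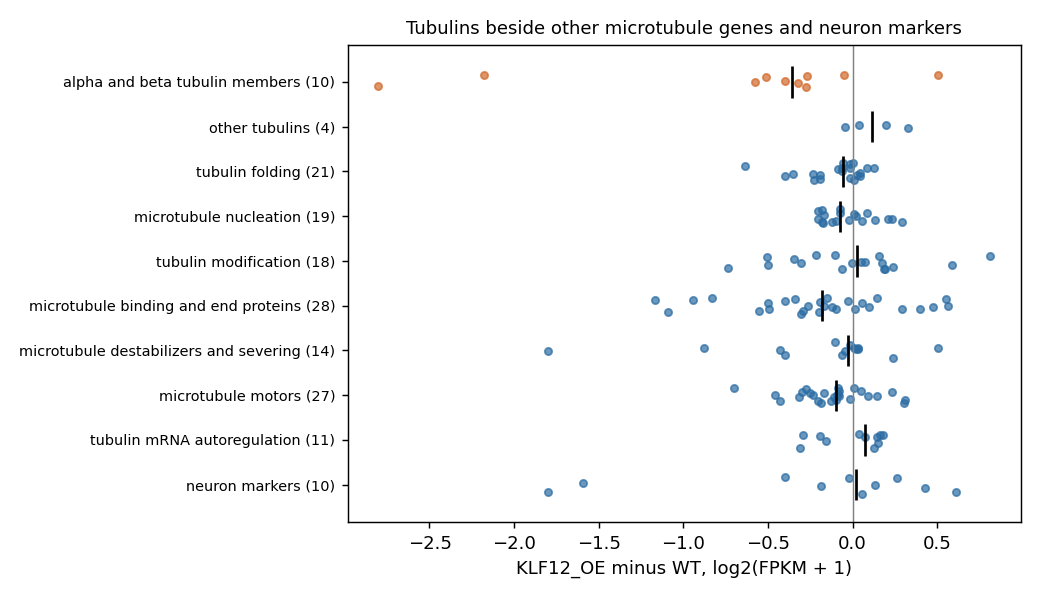
Difference KLF12_OE minus WT on the log2(FPKM + 1) scale for the 10 isotypes (orange) and the tested genes of 8 microtubule lists and of the neuron markers (blue), with the number of genes in brackets and a black line at each median. The medians of the blue lists lie between -0.18 and 0.12, and the lowest blue points, at -1.80, are Stmn2, which belongs to 2 lists.

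Since Tubb3 marks neurons, 24 other neuron markers were listed beside it, of which 10 passed the filter. By limma 1 was called, Gap43, a growth cone protein that fell from 42.8 ± 5.26 to 14.1 ± 5.60 FPKM (SD, n = 3; log2 difference -1.59 ± 0.25, SE; adjusted p = 0.0267), and 9 were not. The call was lost without WT library 1, 2 or 3, without KLF12_OE library 1, without a filter, with quantile normalization and without the variance trend, with an adjusted p of at most 0.153 over the alternatives run. The median of the 10 was 0.02. Stmn2, described above, is also in this list and was lower without overlap, with a log2 difference of -1.80 (limma adjusted p = 0.0736). The 2 markers that were higher without overlap were Isl1 and Nefl, neither of them called by limma (adjusted p = 0.348 and 0.639). Isl1, a factor of early motor and sensory neurons, was at 3.88 ± 1.02 FPKM in WT and 6.43 ± 1.17 in KLF12_OE (SD, n = 3). Nefl, a neurofilament, was at 5.52 to 5.95 FPKM in WT and 6.62 to 7.59 in KLF12_OE.

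The summed level of the 24 markers was 68.7 to 87.0 FPKM in WT and 45.0 to 53.6 in KLF12_OE. Gap43, at 42.8 ± 5.26 and 14.1 ± 5.60 FPKM, weighed most in it. Without Gap43 and Stmn2 the sum was 28.9 to 35.3 FPKM in WT and 30.7 to 40.3 in KLF12_OE, with overlapping groups. The 2 left out are those that were lower in these data, while the 2 that were higher stayed in. This second sum therefore cannot bear on neuron number, and nothing is read from it. Gap43 and Stmn2 were the 2 tested markers that were lower without overlap, beside 2 that were higher. Across all genes tested these shares were 8.98% and 7.9%. Dcx, Nhlh1, Nhlh2, Snap25 and Syt1 were listed at 0 in at least 1 library, and the defining marker Dcx did not exceed 0.19 FPKM in any. The part of neuron number in the Tubb3 and Tubb2b values was not tested. Of 12 neural progenitor markers, 11 were tested and 0 called by limma, with 1 at an unadjusted p under 0.05 and a median of 0.00. Their sum was 131 to 149 FPKM in WT and 108 to 262 in KLF12_OE, where library 3 was highest, with Sox2 at 54.1 FPKM against 24.1 and 30.2 in libraries 1 and 2.

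Markers of other tissues were compared between the groups in the same way. Of the 14 tissue markers 0 were called by limma, and the median log2 difference was -0.27. An unadjusted p under 0.05 was found for 6 of the 14, against 10.9% of all genes tested. The groups did not overlap for 3 that were lower in KLF12_OE and 1 that was higher, against 8.98% and 7.9% of all genes. The embryonic globin Hbb-bh1 was at 2591 ± 1225 FPKM in WT and 999 ± 386 in KLF12_OE, the somite factor Meox1 at 33.5 ± 0.381 and 20.6 ± 9.17, and the heart myosin Myh6 at 47.0 ± 4.66 and 34.2 ± 7.82 (SD, n = 3). Foxa2, of endoderm and the ventral midline, was at 2.05 ± 0.765 and 6.03 ± 2.62 FPKM. The 14 summed to 3004 to 6603 FPKM in WT and 1065 to 2578 in KLF12_OE, mostly from the 2 globins. The part of tissue makeup in the isotype values was not tested.

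The 5 genes outside the tubulins whose log2(FPKM + 1) followed Tubb3 most closely over the 6 libraries were Mapk11, a p38 kinase (Pearson r = 0.997), Tbc1d25 (0.995), Plpp2, a lipid phosphatase (0.994), Frmd8 (0.994) and Anxa11, an annexin (0.993). Tubb2b followed Tubb3 with r = 0.980. These values are dominated by the gap between the groups, are a description, and carry no p. Mapk11 was at 5.73, 5.16 and 6.57 FPKM in WT and 0.51, 0.75 and 1.78 in KLF12_OE, with library 3 the highest of its group as for Tubb3. For Tubb2b, a search added after its values were seen gave Isyna1, the inositol phosphate synthase (0.997), Vat1 (0.997), Tbcd (0.993), Klc1 (0.991) and Zfp52 (0.990), of which Tbcd and Klc1 are the tubulin cofactor and kinesin chain named above. Isyna1 was at 102, 102 and 103 FPKM in WT and 59.8, 64.9 and 63.1 in KLF12_OE.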

How the data were processed

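The authors deposited 1 table of FPKM values with 1 column per sample, per the file headers. The submitters' processing notes name CASAVA, HISAT2 (2.0.4), RSEM (1.2.8) and build mm9, with no role or order. Of 17741 rows, 16874 matched a symbol in the GRCm38.p6 gene table. As the table has no counts, log2(FPKM + 1) was fitted with limma 3.58.1 (R 4.3.3), using its intensity trend, on 12141 genes whose mean reached 1 FPKM. Called means a Benjamini-Hochberg adjusted p under 0.05. Depth was estimated from the step that 1 fragment makes in FPKM times GENCODE M21 transcript length, and is approximate because effective lengths are unknown. Coding sequences were aligned with Biopython 1.88, in place of a planned comparison of proteins, which were not used here.

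The isotypes and lists were chosen with earlier results of these data known. Each microtubule list's named genes were its called genes (at most 3) or else the 2 of smallest unadjusted p. Gap43 was named by the same rule, and the genes most like Tubb3 by theirs. Other marker genes, such as Isl1, Nefl, Dcx and Sox2, were named outside these rules. Of the tissue markers, those without overlap between the groups were named. Tested on simulated data of 12141 genes, the fit recovered 54% of 100 genes shifted by 1 and 85% of 100 shifted by 2 (log2), and called 6 unchanged genes. Alternatives covered pseudocount, filter, scaling, variance model, library weights, a replicate block and each library left out. A fit with the length trend of each library taken out was added after seeing the data.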

Additional observations from a re-analysis of the deposited data

How the results depend on the processing

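Tubb2b and Tubb3 had negative log2 differences in each of the 18 settings run, from -2.39 to -2.03 and from -3.46 to -2.51. Their groups do not overlap, so leaving out a library could not turn them. Tuba1b changed sign in 3 settings: array weights, the transcript length trend removed, and without KLF12_OE library 3. The other isotypes kept their sign in each setting that tested them. Tubb2b was called in all 18 settings and Tubb3 in 16. Tuba1a was called with quantile normalization, with array weights and without KLF12_OE library 3 (limma adjusted p = 0.0225, 0.00926 and 0.0149). Tubb4b, Tubb5, Tubb6 and Tuba1c were called with array weights only. The isotypes were chosen on this same contrast, so these calls are a description and nothing is read from them. The number of genes called was 89. It was 29 without a filter, 55 as TPM, 1585 with array weights, 146 with the length trend removed, and 17 to 326 with each library left out: 25, 22 and 17 without WT libraries 1, 2 and 3, and 45, 64 and 326 without KLF12_OE libraries 1, 2 and 3. Of the microtubule lists, 0 genes were called, against 29 with array weights, 2 with the replicate block (Crmp1 and Stmn2), 4 with the length trend removed (Crmp1, Dclk1, Map4 and Stmn2), and 0 to 6 with each library left out. It was 1, Dynlt1b, without KLF12_OE library 2, and 6 without KLF12_OE library 3: Clip2, Crmp1, Map1b, Map4, Mid1 and Stmn2, each lower. The cause was not tested, except that fewer samples or more genes enter some fits. With the replicate block 64 genes were called. Deviations of libraries with the same number correlated by 0.03, -0.11 and 0.04, and 1 of 6 libraries correlated best with its own number, so no pairing was visible. Other scalings moved the median of all genes by less than 0.1. Depth limits the Tubb3 values of KLF12_OE libraries 1 and 2, at about 21 and 36 fragments.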
